A study of Mus musculus with 37 samples.

Results

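The genes described here make and fill the dense-core granule, the organelle in which neurons and endocrine cells store peptide hormones. They are the granins Chga, Chgb, Scg2 and Scg3, the convertase chaperone Scg5, the prohormone convertases Pcsk1 and Pcsk2, the carboxypeptidase Cpe, and the granule membrane proteins Ptprn and Ptprn2. The 10 genes were chosen by name and function. No measured value was used as a rule for membership, though earlier results of these data were known at the time. A probe set annotated to a single symbol was found for 9 of them, among 18193 genes represented in the table and 13078 genes bright enough to be tested. Pcsk2 was not analysed here. All 9 measured members passed the filter on dim genes, and where a gene had several probe sets the brightest over the 37 arrays is given.

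The tissue was mouse temporal lobe, dissected under a microscope and frozen, and its total RNA was measured on 37 Affymetrix arrays. Each strain gave 9 WT arrays, and there were 9 KO arrays in C57 and 10 in 129. KO marks a WFS1 KO genotype and WT the matching wild type, and the strains are labelled C57 and 129SV, the latter called 129 here as in the sample titles. Neither the targeted allele nor the age or sex of the mice is given in the sources used here. Because the labels do not state that every array came from a separate animal, the p-values measure the spread between samples, which may be partly technical.

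Hormone and neuropeptide precursors enter the regulated secretory pathway at the trans-Golgi network. There the acidic granins aggregate with calcium and help to sort cargo, convertases cut the precursors at paired basic residues, and carboxypeptidase E removes the residues left at the new ends. The finished granules wait for a calcium signal. Wfs1 encodes wolframin, a membrane protein of the endoplasmic reticulum, where these precursors are folded; its loss in humans causes Wolfram syndrome, in which insulin-secreting cells and neurons fail. The question asked of these genes was whether their transcripts differed between WT and KO temporal lobe, between the strains, or with the level of Wfs1 itself.

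Several granule genes are known for transcription that responds to cyclic AMP. Promoter windows are printed here because the element for that response is a feature several members share that the choice of genes did not use. RefSeq promoters of GRCm38.p6, running from 250 bases before to 50 bases after each transcript start, were listed for 9 of the 10 members (Cpe is named only), with a pair of promoters for Ptprn. The cyclic AMP response element TGACGTCA, searched on both strands, was found for 3 of 9 members and for 2.03% of the 27025 genes in the table. The windows around it, written 5′ to 3′ on the gene's strand with the motif in capitals, were at chr1:79440051-79440130 (minus strand) for Scg2, at chr2:132781534-132781613 (plus strand) for Chgb and at chr13:75089743-75089822 (plus strand) for Pcsk1.
Scg2: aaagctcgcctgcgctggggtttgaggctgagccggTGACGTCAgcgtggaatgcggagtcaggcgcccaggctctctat
Chgb: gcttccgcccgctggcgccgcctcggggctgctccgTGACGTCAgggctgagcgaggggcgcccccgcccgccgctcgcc
Pcsk1: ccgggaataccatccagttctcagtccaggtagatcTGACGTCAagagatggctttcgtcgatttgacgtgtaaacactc

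The motif began 68 bases before the start in Scg2, 72 in Chgb and 78 in Pcsk1. The shorter core TGACG, which is contained in the full element and was also searched on both strands, was found for 8 of 9 members and for 23.0% of all genes. It is shown for the granins Chga (chr12:102554861-102554937, plus strand) and Scg3 (chr9:75684046-75684122, minus strand), where it began 44 and 30 bases before the start.
Chga: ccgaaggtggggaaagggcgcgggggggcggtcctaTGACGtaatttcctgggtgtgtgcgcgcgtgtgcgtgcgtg
Scg3: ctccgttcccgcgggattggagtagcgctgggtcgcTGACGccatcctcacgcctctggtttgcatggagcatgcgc

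In Ptprn2 these letters were not in the window. The core was held by 4 of 13 other granins and processing enzymes, 14 of 22 genes of granule biogenesis and exocytosis and 11 of 21 neuropeptide and hormone genes with a listed promoter. The full element was held by 0, 1 and 2 genes of these lists. The GC-box core CCGCCC was found for 7 of 9 members against 38.2% of all genes, and the TATA box letters TATAAA for 1 of 9 members, Chga, against 15.7%. The members' promoters held from 49.3% GC (Pcsk1) to 76.3% GC (Pcsk2), beside a median of 52.7% over all promoters. The part of GC content in the shares with a motif was not tested. These matches describe letters and were not tested as binding sites.

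Wfs1 marked the groups as labelled. Its mean log2 signal was 9.32 ± 0.17 (SD, n = 9) in C57 WT and 3.03 ± 0.26 (n = 9) in C57 KO, and 9.33 ± 0.12 (n = 9) in 129 WT and 3.11 ± 0.28 (n = 10) in 129 KO. No array overlapped between genotypes in either strain. Array medians lay between 4.30 and 4.36. All 10 pan-neuronal markers passed the filter on dim genes, which marks neural tissue and not the temporal lobe in particular, and of the 7 pituitary markers with a probe set 2 passed, Gh and Pomc. Arrays also differed in ways the groups do not explain. The actin controls serve as a sign of RNA integrity, since degraded RNA loses signal at the 5′ end, but they do not measure it directly. Their 3′ minus 5′ difference lay between 0.91 and 2.76, with 129 WT array 73 at the top. The 3 arrays least like their own group were 129 WT array 73 and 129 KO arrays 57 and 59. The arrays also fell into sets of 19 and 18, which held the lower and the higher sample numbers within each group. Each set held 4 or 5 arrays of every group, and the labels give the sets no meaning. Below, lower and higher sample numbers mean these sets. The sets were found by clustering the arrays on the 40 genes that varied most within groups, with members and Wfs1 left out.

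**Figure D1:**
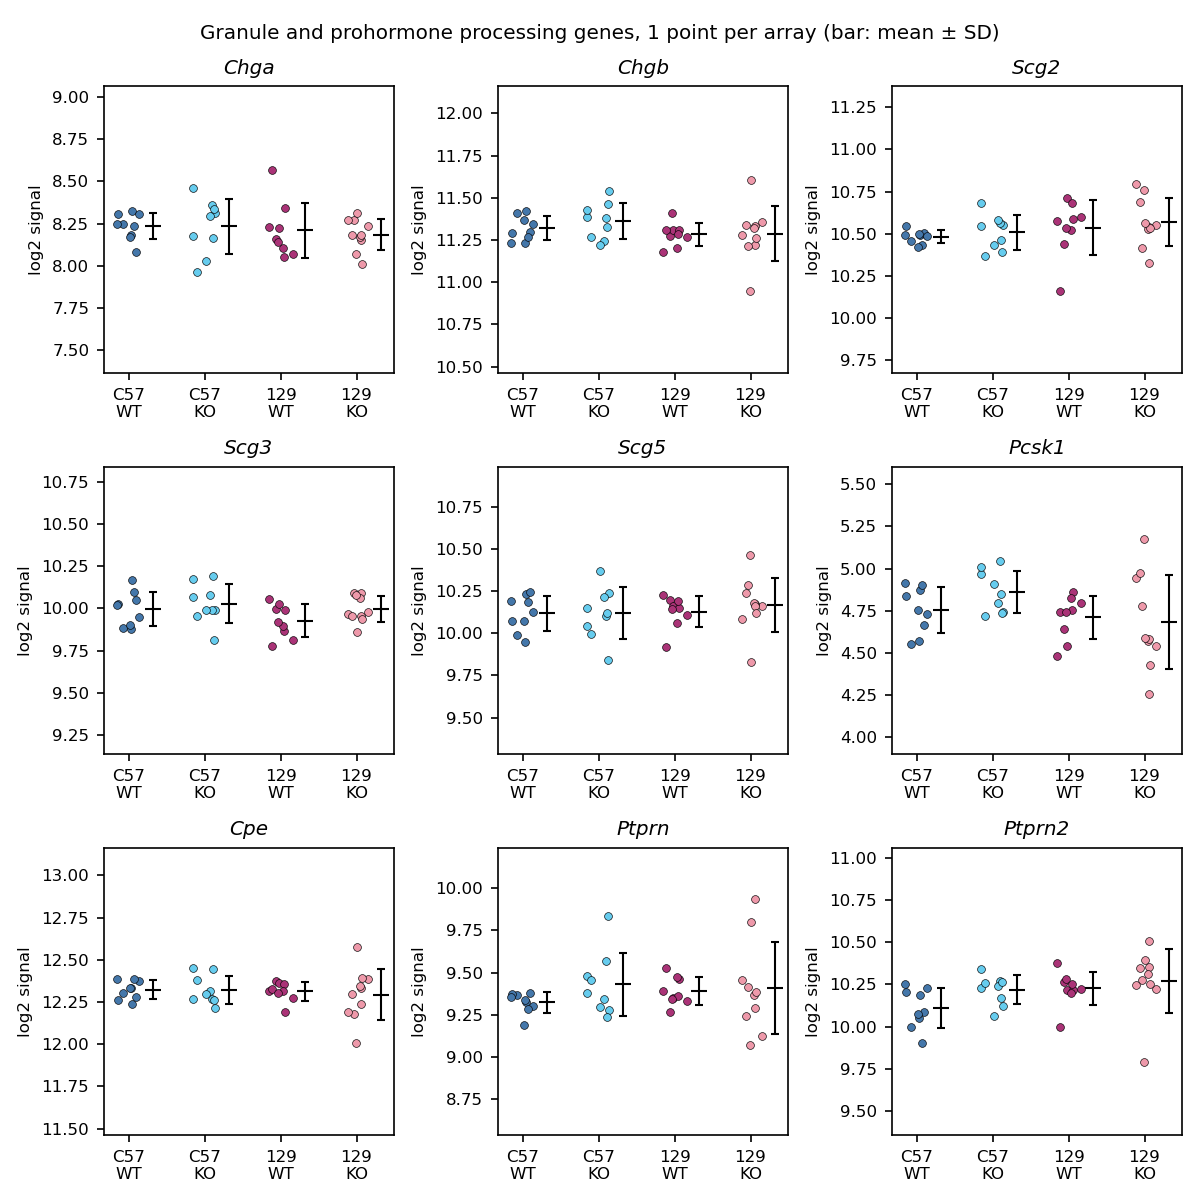
Log2 signal (vertical axis) of the 9 measured members in each of the 37 arrays, by group, with group means and SDs. Group ranges overlapped for every member in every comparison; arrays that stand apart below their group include 129 WT array 73 (Scg2, Ptprn2) and 129 KO array 59 (Ptprn2).

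Among the granins, Chga encodes chromogranin A, an acidic matrix protein that is also the precursor of several peptides. Its log2 signal ran from 8.08 to 8.32 (median 8.24) in C57 WT and from 7.97 to 8.46 (median 8.29) in C57 KO. In 129 WT it ran from 8.05 to 8.57 (median 8.16) and in 129 KO from 8.01 to 8.31 (median 8.18). Array 73 held the highest Chga value of the 129 WT group, and the ranges of WT and KO overlapped in both strains. The KO minus WT difference was −0.03 (SE 0.06) in 129 and smaller still in C57, where the group means were both 8.23. Its direction in 129 turned with the array set, from −0.10 in the lower-numbered arrays alone to 0.08 in the others, and neither value was called (limma adjusted p of 0.96 and 1.00). Array 73 lies in the lower-numbered set. With only that array left out, the 129 difference over both sets was 0.02.

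Chgb encodes chromogranin B, a second acidic granule protein. Its signals ran from 11.23 to 11.42 (median 11.30) in C57 WT, from 11.22 to 11.54 (median 11.38) in C57 KO, from 11.18 to 11.41 (median 11.29) in 129 WT and from 10.95 to 11.61 (median 11.30) in 129 KO. The 129 KO group was the widest, with arrays 59 and 57 at its ends. KO minus WT was 0.04 (SE 0.06) in C57 and 0.00 (SE 0.05) in 129.

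Scg2 encodes secretogranin II, the precursor of the peptide secretoneurin. Its signals ran from 10.42 to 10.54 (median 10.49) in C57 WT and from 10.37 to 10.68 (median 10.55) in C57 KO. They ran from 10.16 to 10.71 (median 10.58) in 129 WT and from 10.33 to 10.79 (median 10.54) in 129 KO. C57 WT was the tightest of all groups for this gene, with an SD of 0.04, and 129 WT array 73 lay below every other array. The KO effect was 0.03 (SE 0.06) in C57 and 0.03 (SE 0.06) in 129.

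Scg3 encodes secretogranin III, which binds chromogranin A and cholesterol-rich granule membrane. Its signals ran from 9.88 to 10.17 (median 10.02) in C57 WT, from 9.81 to 10.19 (median 9.99) in C57 KO, from 9.78 to 10.06 (median 9.92) in 129 WT and from 9.86 to 10.09 (median 9.97) in 129 KO. The ranges of all groups overlapped. Scg3 differed by 0.03 (SE 0.05) between KO and WT in C57 and by 0.07 (SE 0.05) in 129, the highest difference of any member in that strain.

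Of the processing machinery, Scg5 encodes 7B2, the chaperone that Pcsk2 needs to become active. Its signals ran from 9.95 to 10.24 (median 10.13) in C57 WT and from 9.84 to 10.37 (median 10.12) in C57 KO. They ran from 9.92 to 10.23 (median 10.15) in 129 WT and from 9.83 to 10.46 (median 10.17) in 129 KO. In 129 KO the lowest and highest arrays were 57 and 59, both among the arrays least like their group, and KO minus WT was 0.00 (SE 0.06) in C57 and 0.04 (SE 0.06) in 129.

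Pcsk1 encodes prohormone convertase 1/3, the enzyme of the early cuts. Its probe set was the dimmest of the members, above the filter at 3.60. Signals ran from 4.55 to 4.92 (median 4.76) in C57 WT, from 4.72 to 5.05 (median 4.85) in C57 KO, from 4.48 to 4.86 (median 4.74) in 129 WT and from 4.26 to 5.18 (median 4.59) in 129 KO. The 129 KO arrays spanned the whole range of the other groups, with array 51 lowest and array 59 highest. KO minus WT was 0.11 (SE 0.08) in C57 and −0.03 (SE 0.08) in 129.

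Cpe encodes carboxypeptidase E, which trims cut precursors and also acts in sorting. It gave signals from 12.24 to 12.39 (median 12.33) in C57 WT, from 12.22 to 12.45 (median 12.30) in C57 KO, from 12.19 to 12.37 (median 12.32) in 129 WT and from 12.01 to 12.57 (median 12.32) in 129 KO. Of the groups only 129 KO was wide, between arrays 59 and 57. KO minus WT was −0.02 (SE 0.05) in 129, and in C57 both means were 12.32. A second Cpe probe set, far dimmer at group means of 4.45 to 4.53, differed by 0.04 (SE 0.09) and −0.02 (SE 0.09).

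Ptprn (IA-2) and Ptprn2 (phogrin) encode transmembrane proteins of the granule with an inactive phosphatase fold, and both are autoantigens in type 1 diabetes. Ptprn signals ran from 9.19 to 9.38 (median 9.34) in C57 WT, from 9.24 to 9.84 (median 9.38) in C57 KO, from 9.26 to 9.52 (median 9.36) in 129 WT and from 9.07 to 9.93 (median 9.38) in 129 KO. The KO groups were wider than the WT groups, in C57 upwards to array 10, and in 129 upwards to arrays 53 and 57 and downwards to arrays 50 and 59. KO minus WT was 0.11 (SE 0.08) in C57 and 0.02 (SE 0.08) in 129.

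Ptprn2 signals ran from 9.90 to 10.25 (median 10.09) in C57 WT, from 10.06 to 10.34 (median 10.24) in C57 KO, from 10.00 to 10.38 (median 10.22) in 129 WT and from 9.79 to 10.51 (median 10.29) in 129 KO. C57 WT was the lowest group, and its upper arrays still lay inside the range of the others. The difference, KO minus WT, was 0.11 (SE 0.06) in C57 and 0.04 (SE 0.06) in 129. A dim second Ptprn2 probe set, with group means of 3.69 to 3.82, went the other way in C57, by −0.12 (SE 0.09, limma p = 0.189).

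No member passed the test for loss of Wfs1. In C57, 0 of 9 members were called at a limma adjusted p under 0.05, where 14 of 13078 genes (0.107%) were called, and 0 of 9 had an unadjusted p under 0.05, against 833 genes (6.37%). In 129, 0 of 9 were called against 0.00765% of all genes, a single gene, and 0 of 9 had an unadjusted p under 0.05 against 2.13%. For the mean of the 2 strains 0 of 9 were called (background 0.0229%; unadjusted 0 of 9 against 4.95%), and for the difference between the strains' KO effects 0 of 9 (background 0.0153%; unadjusted 0 of 9 against 3.34%). No member's WT and KO arrays were separate, which was so for 0.0612% of genes in C57 and 0.00765% in 129.

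For each gene taken alone, the intervals set how large a difference in measured signal could have been missed. They do not bound a change limited to some of the cells. In C57 the differences ran from slightly below 0 (Cpe) to 0.11 (Pcsk1), 7 of 9 lay above 0, and their median of 0.03 stood beside 0.02 for all genes, of which 61.6% lay above 0. The smallest p was that of Ptprn2 (limma p = 0.0974, adjusted p = 0.854). All 9 95% intervals stayed within 0.28 on either side of 0, a 1.21-fold change, and the widest reach was that of Pcsk1. The intervals of 79.9% of all genes tested, not matched for brightness, stayed within the same bound. In 129 the differences ran from −0.03 (Pcsk1) to 0.07 (Scg3), 6 of 9 lay above 0 against 47.6% of all genes, and the intervals stayed within 0.19 (1.14-fold), which held for 49.5% of all genes. For the mean of both strains the intervals stayed within 0.18 (1.13-fold). The difference between the KO effects, C57 minus 129, ran from −0.04 (Scg3) to 0.13 (Pcsk1), within intervals that reached 0.37 (1.30-fold). In bulk tissue, fewer cells of a type and less RNA per cell cannot be told apart.

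**Figure D2:**
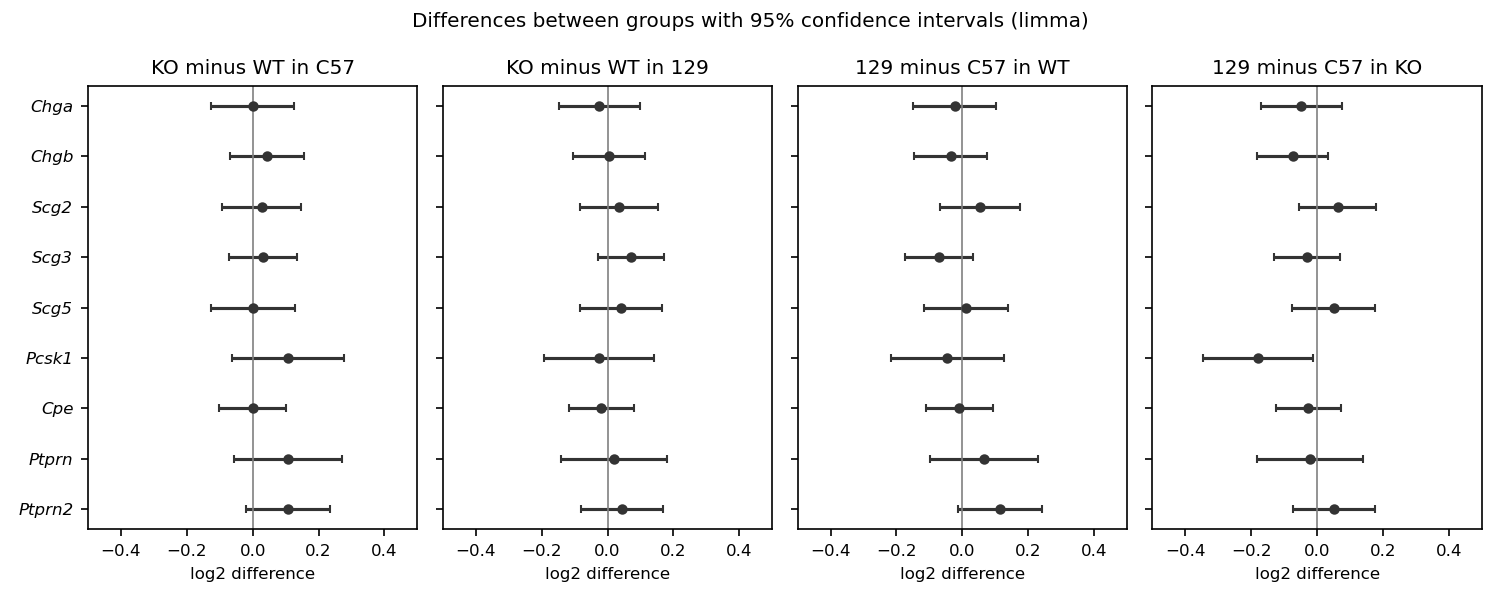
Differences in log2 signal (horizontal axis) with 95% intervals for the 9 members, for KO minus WT in each strain and 129 minus C57 in each genotype. Every KO minus WT interval includes 0; in these panels the interval that leaves it out is that of Pcsk1 between the KO groups of the strains (−0.35 to −0.01).

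Between the strains, too, no member passed the test. In WT, 0 of 9 were called against 269 genes (2.06%), and 0 of 9 had an unadjusted p under 0.05 against 11.6%. The differences, 129 minus C57, ran from −0.07 (Scg3) to 0.12 (Ptprn2, limma p = 0.0756, adjusted p = 0.519), with intervals within 0.24 (1.18-fold). In KO, 0 of 9 were called against 400 genes (3.06%). There 1 of 9, Pcsk1, had an unadjusted p under 0.05, against 12.3% of genes, with means of 4.68 in 129 KO and 4.86 in C57 KO (difference −0.18, SE 0.08, limma p = 0.0345, adjusted p = 0.334). In the arrays with lower sample numbers alone this Pcsk1 difference was −0.38 (adjusted p = 0.0482), and in those with higher numbers alone it was 0.03 (adjusted p = 0.963). No member's strains were separate, against 0.39% of genes in WT and 0.184% in KO.

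Of 16 tested genes among other granins and processing enzymes, 0 were called for KO minus WT in either strain. The smallest p-values in C57 were those of Pam, which amidates peptide ends (0.30, SE 0.12), Cpm, a membrane carboxypeptidase (−0.29, SE 0.13), and Pcsk1n, the convertase inhibitor proSAAS (0.13, SE 0.06), with limma adjusted p of 0.625 to 0.766. In 129 they were Gnas (0.07), Furin (−0.13) and Cpd (0.09), each with an adjusted p of 1.00. Of 27 tested genes of granule biogenesis and exocytosis, 0 were called in either strain. In C57 24 of 27 lay above 0, with a median of 0.05, where 61.6% of all genes lay above 0 with a median of 0.02. Under quantile normalization 24 of 27 lay above 0 with a median of 0.03, beside 57.1% and 0.01 for all genes, and under median centring 24 of 27 with a median of 0.05, beside 63.9% and 0.03. In 129 14 of 27 lay above 0, with a median of 0.00. The smallest p-values in C57 were those of Syt4, a granule synaptotagmin (0.18, SE 0.08), Cadps2, a priming factor (0.12, SE 0.06), and Stx1a, a fusion protein (0.12, SE 0.07), and none passed the adjusted threshold (0.703 to 0.833). Of the pan-neuronal markers 9 of 10 lay above 0 in C57 with a median of 0.03, and of the oligodendrocyte markers 1 of 9 with a median of −0.15; in both lists 0 had an unadjusted p under 0.05, and their part in the result was not tested.

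The cargo of the granules was tested through 25 neuropeptide and hormone genes, and 0 were called for KO minus WT in either strain. In C57 12 of 25 lay above 0. The smallest p-values belonged to Penk, proenkephalin (−0.26, SE 0.07, limma p = 0.00109, adjusted p = 0.309), Tac1, the substance P precursor (−0.34, SE 0.11, adjusted p = 0.475), and Pmch, melanin-concentrating hormone (−0.65, SE 0.30, adjusted p = 0.724). Penk and Tac1 are abundant in striatal neurons and also stand in the list of striatum markers. The 10 other tested striatum markers all had lower values in C57 KO than in C57 WT, with a median of −0.54. Of these 0 were called, beside 0.107% of all genes, and 10 of 10 had an unadjusted p under 0.05, beside 6.37%. Their mean log2 signal ran from 7.27 to 8.48 in C57 WT and from 6.98 to 8.13 in C57 KO. In 129 all 10 lay below 0 with a median of −0.18, 0 were called and 0 of 10 had an unadjusted p under 0.05. The part of striatal tissue in the values of Penk and Tac1 was not tested.

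Between the strains in WT, 1 of 16 other granins and processing enzymes (Pam), 1 of 27 genes of granule biogenesis and exocytosis (Ica1) and 0 of 25 cargo genes were called, beside 2.06% of all genes. In KO the counts were 0 of 16, 1 of 27 (Ica1) and 0 of 25, beside 3.06%. Pam, read by only 1 probe set, gave a higher signal in 129 WT. Its mean log2 signal was 7.68 ± 0.23 (SD, n = 9) in C57 WT and 8.30 ± 0.16 (n = 9) in 129 WT, and every 129 WT array (8.06 to 8.53) lay above every C57 WT array (7.32 to 7.94). The difference was 0.62 (SE 0.12, limma adjusted p = 0.0013). It was 0.40 in the arrays with lower sample numbers alone (adjusted p = 0.310) and 0.84 in the others (adjusted p = 0.0196). In KO, Pam was 8.34 ± 0.14 (n = 10) in 129 and 7.98 ± 0.41 (n = 9) in C57, a difference of 0.36 (SE 0.11) that did not pass (adjusted p = 0.071). The C57 KO group was uneven for Pam, with arrays 1, 2, 9 and 17 at 8.33 to 8.44 and the other 5 at 7.41 to 7.94. Leaving out array 1, 2, 9 or 17 brought the KO difference past the threshold (adjusted p of 0.0424, 0.034, 0.0273 and 0.0418).

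Ica1 encodes ICA69, a protein of immature granules and a further diabetes autoantigen. It was lower in 129, with means of 7.76 ± 0.07 (SD, n = 9) against 7.96 ± 0.12 (n = 9) in WT and 7.80 ± 0.15 (n = 10) against 8.04 ± 0.07 (n = 9) in KO. The differences were −0.20 (SE 0.05, limma adjusted p = 0.0392) in WT and −0.25 (SE 0.05, adjusted p = 0.00495) in KO. A second, dimmer Ica1 probe set gave −0.03 (SE 0.16) in WT and 0.20 (SE 0.16) in KO, and with the mean of both probe sets neither call held (adjusted p of 0.701 and 0.96). Of 14 alternatives other than leaving out 1 array, the WT call held in 10 and the KO call in 12. The WT call was also lost with no filter (adjusted p = 0.053) and in each array set alone (−0.16, adjusted p = 0.327; −0.25, adjusted p = 0.289), and the KO call in the higher-numbered set alone (−0.23, adjusted p = 0.526). The WT call was also lost without C57 WT array 26, 28, 34 or 40, or 129 WT array 70, 71, 72, 74, 76, 77 or 78 (adjusted p from 0.0534 to 0.101).

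**Figure D3:**
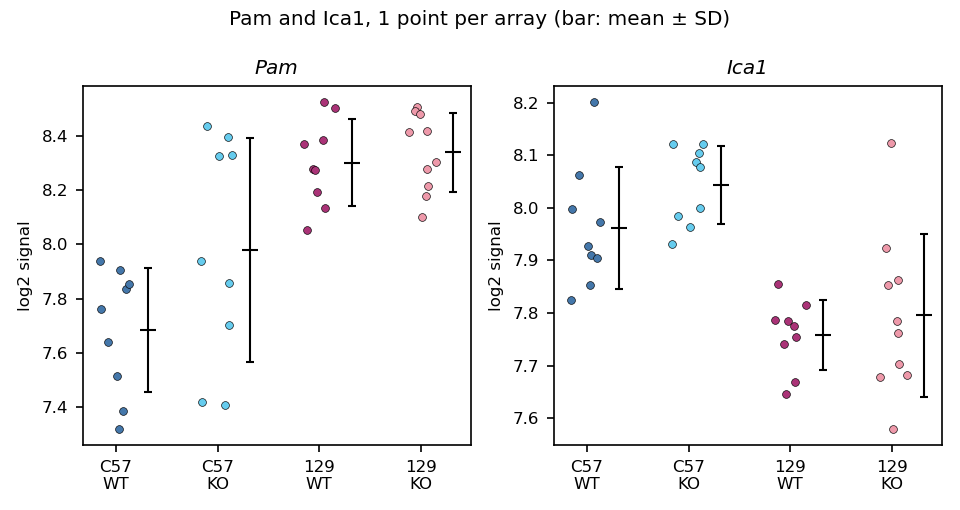
Log2 signal (vertical axis) of Pam and of Ica1, brighter probe set, in each array by group, with group means and SDs. For Pam all 129 WT arrays (8.06 to 8.53) lie above all C57 WT arrays (7.32 to 7.94), and the C57 KO arrays split between 7.41 to 7.94 and 8.33 to 8.44; for Ica1 the 129 means (7.76 and 7.80) lie below the C57 means (7.96 and 8.04).

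The members' median SD within groups was below that of all genes. It was 0.08 in C57 WT, 0.12 in C57 KO, 0.10 in 129 WT and 0.16 in 129 KO, beside 0.13, 0.15, 0.13 and 0.18 for all genes tested. All genes were not matched to the members for brightness. By mean signal Pcsk1 lay at the 19.1 percentile of genes tested, and the other members lay between 80.1 (Chga) and 99.9 (Cpe). The part of brightness in the lower SD was not tested. Without the 3 arrays least like their group the members' median SD was 0.07 in 129 WT and 0.08 in 129 KO. Those arrays were picked for lying far from their group over all genes tested, so a fall in SD is built into the choice. The matching SD of all genes was not computed. Of the arrays left out, 57 and 59 belong to 129 KO, the group with the widest spread.

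After group means were removed, the members showed no common direction over the 37 arrays. Of their 36 pairs, 18 had a correlation above 0, with a median r of −0.02, beside 0.02 over all pairs of genes tested, 53.5% of which were above 0. The closest pair was Scg3 with Scg5 (r = 0.64, rho = 0.63). It gave 0.57 without the 3 arrays least like their group. Ptprn and Ptprn2, the paralogs, came next (r = 0.47, rho = 0.26; 0.43 without the 3 arrays), and Chga with Chgb gave 0.41 (0.39). The pair Chgb with Cpe showed how much single arrays weighed, since its r of 0.44 became −0.17 without the 3 arrays. The lowest pair was Scg5 with Ptprn (r = −0.60; −0.41 without them). Of 12 pairs with r above 0.3, 4 kept such a value without the 3 arrays, and 9 pairs changed sign. These correlations are descriptions over arrays that differ in the actin difference and in array set, and no p is given.

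**Figure D4:**
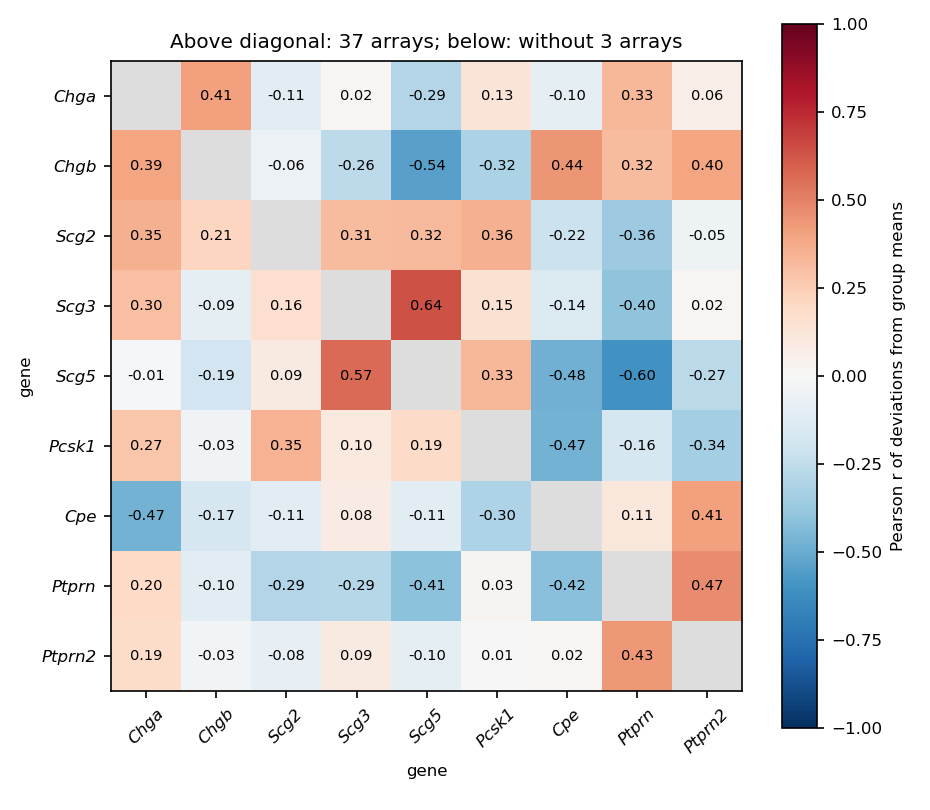
Pearson correlation of the members' log2 signals over arrays after group means were removed, for each pair of members, with all 37 arrays and without the 3 arrays least like their group. Scg3 with Scg5 (0.64 and 0.57) keeps its value, whereas Chgb with Cpe turns from 0.44 to −0.17.

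Members sorted along the main axis of variation between arrays, which held 17.0% of the residual variance. Scg2 (r = 0.59), Scg3 (0.45), Scg5 (0.79) and Pcsk1 (0.50) lay on one side, and Chga (−0.26), Chgb (−0.46), Cpe (−0.61), Ptprn (−0.72) and Ptprn2 (−0.48) on the other, so that 4 of 9 lay above 0, beside 55.0% of all genes. Without the 3 arrays the main axis was computed anew, with its sign set to match, and held 15.7% of the residual variance. On that new axis Chga and Chgb lay on the other side (0.41 and 0.34). The other members lay closer to 0 than on the first axis. They were at 0.50 for Scg2, 0.37 for Scg3, 0.48 for Scg5, 0.31 for Pcsk1, −0.41 for Cpe, −0.37 for Ptprn and −0.12 for Ptprn2. The axes differ, so a change of side is not a move along a single axis. The genes most like each member were also listed, over all 37 arrays. They were picked for the highest r among the other genes tested, and their r was not computed again without the 3 arrays. For Scg5 they were Rpf1, Ap4s1 and Rpl4 (r = 0.91, 0.91 and 0.88 over 37 arrays), for Ptprn they were Clptm1, Spock2 and Atn1 (0.89, 0.89 and 0.88), and for Cpe they were Fkbp1a, Ubqln2 and Anks1b (0.87, 0.84 and 0.81). For Chga they were Ppp1r16a, Rfng and Ewsr1 (0.80, 0.79 and 0.78), for Chgb Anp32b, Dnajb2 and Slc12a5 (0.79 for each), for Scg2 Slc17a6, Eea1 and Ankrd6 (0.79, 0.76 and 0.76), and for Scg3 Cav2, Slc30a5 and Gtdc1 (0.79, 0.77 and 0.76). For Ptprn2 they were Celf5, Mtpn and Arl2bp (0.82, 0.80 and 0.77), and for Pcsk1 Abcf3, Mrpl34 and Mrpl45 (0.68, 0.67 and 0.67). No gene was named for more than 1 member, though with only 3 genes named for each, overlap had little room to arise. With the mean of the members, Erich3 (0.70), Gna11 (0.69), Acvr1b (0.68), Amer2 (0.65) and Dlx1 (0.65) were closest.

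The signal of some members moved with the actin difference, at a share close to that of all genes. The slope of log2 signal on the actin 3′ minus 5′ difference, within groups, was called for 2 of 9 members and for 21% of all genes. Chga was higher in arrays with a larger difference (slope 0.25, SE 0.05, limma adjusted p = 0.000305; r = 0.70, permutation p = 3.00e-05; rho = 0.53, permutation p = 0.00194). Scg5 was lower there (slope −0.20, SE 0.06, adjusted p = 0.00906; r = −0.55, permutation p = 0.00022; rho = −0.46, permutation p = 0.00779). Without 129 WT array 73 and C57 KO array 10, the arrays farthest from the median of the difference, r was 0.55 for Chga and −0.39 for Scg5. Without 129 WT array 73 alone both slopes were still called (adjusted p of 0.0227 and 0.0384), beside 10.1% of all genes. Within the array sets r was 0.67 and 0.68 for Chga, and −0.72 and −0.75 for Scg5. Between the array sets themselves 0 of 9 members were called, against 7.13% of genes, and the smallest adjusted p was that of Chga (0.12 lower in the higher-numbered set, adjusted p = 0.0713). Members were kept out of the genes that defined the sets, whereas the 7.13% is over all genes tested, those genes included. The counts are therefore not a like comparison.

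Among the 18 WT arrays, where Wfs1 ran from 9.16 to 9.73 in C57 and from 9.11 to 9.52 in 129, no member passed the test for following its level. The slope on Wfs1, with strain in the model, was called for 0 of 9 members and for 0 of 13077 genes (0%), while 0 of 9 members and 7.32% of genes had an unadjusted limma p under 0.05. The members' median absolute r within strains was 0.197, beside 0.198 over all genes. The strongest relation was that of Ptprn (slope −0.26, SE 0.14, limma p = 0.077, adjusted p = 0.692; r = −0.53, permutation p = 0.0237; rho = −0.27, permutation p = 0.305). In C57 its r was −0.75 with array 42, the array with the most Wfs1, and −0.04 without it, and in 129 it was −0.36 with array 73 and 0.17 without it. For scale, the largest correlations of any gene were those of Osgepl1 (0.81), Mrpl32 (0.81) and Pgm1 (0.79) above 0, and of Rims3 (−0.86), Ints3 (−0.78) and Kcng1 (−0.77) below 0.

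**Figure D5:**
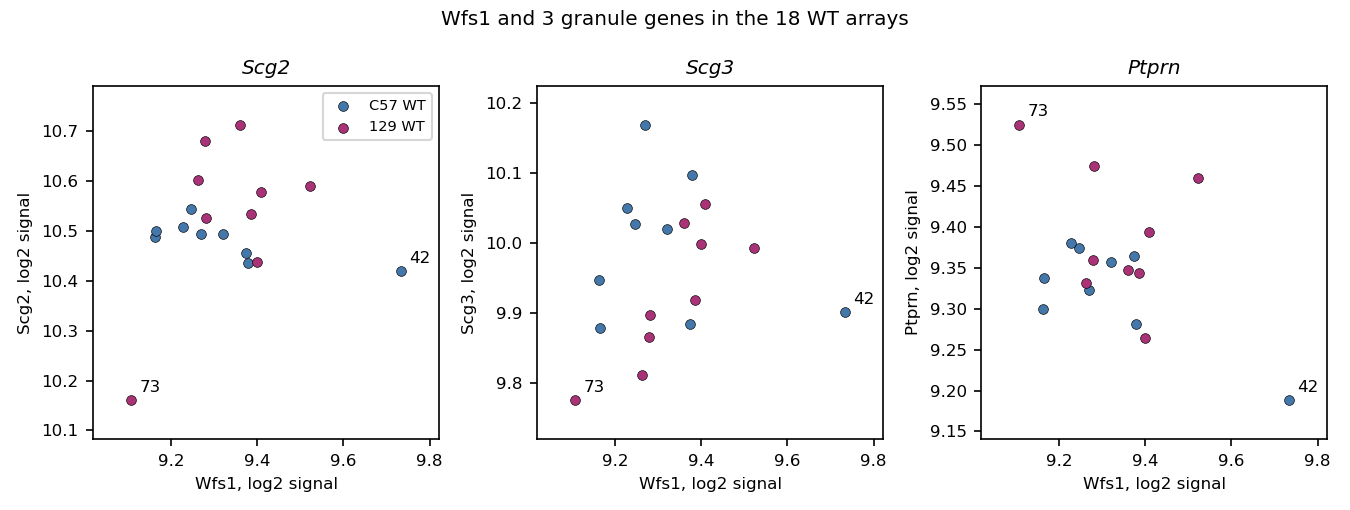
Log2 signal of Scg2, Scg3 and Ptprn (vertical axes) against the log2 signal of Wfs1 (horizontal axis) in the 18 WT arrays, by strain, with the numbers of 129 WT array 73 and C57 WT array 42. Array 42 has the highest Wfs1 signal (9.73) and array 73 the lowest (9.11), and the C57 relation of Ptprn falls from r = −0.75 to −0.04 without it.

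Within strains several relations to Wfs1 rested on 129 WT array 73, the array with the least Wfs1, or on C57 WT array 42. In 129, Scg3 gave r = 0.82 (exact permutation p = 0.0043; rho = 0.83, exact permutation p = 0.00827) and 0.72 without array 73. In C57 it gave −0.21, and 0.25 without array 42. Scg2 gave 0.55 in 129 (rho = 0.05), which became −0.21 without array 73. In C57 Scg2 gave −0.77 (exact permutation p = 0.0104), which became −0.63 without array 42. By rank it gave rho = −0.67 there (exact permutation p = 0.0589). These permutation p-values were not adjusted for the number of relations examined. Scg5 gave 0.76 in 129 (rho = 0.63) and 0.40 without array 73, and Ptprn2 gave 0.70 (rho = 0.47) and 0.24. Chga went the other way, from −0.25 with array 73 to 0.92 without it over 8 arrays. The difference between the slopes of the strains was called for 0 of 9 members and 0 of 13077 genes (0%). Unadjusted limma p-values under 0.05 were found for 3 of 9 members, Scg2 (slope difference 0.93, SE 0.40, adjusted p = 0.407), Scg3 (0.81, SE 0.35, adjusted p = 0.416) and Ptprn2 (0.81, SE 0.39, adjusted p = 0.469), against 10.6% of all genes.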

How the data were processed

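Per the submitters' processing notes, which name MAS5 and GCRMA without role or version, and per the values, the authors deposited log2 probe set signals that were already normalized between arrays; they were used as deposited. Of 45101 probe sets, 34945 had 1 symbol, 932 several, 9160 none and 64 were controls; those with 1 symbol were used, and symbols came from GEO's platform annotation. The brightest probe set stood for each gene, and genes with a group mean at or above the 40th percentile of probe sets (3.60) were tested. limma 3.58.1 (R 4.3.3) fitted 4 group means to all 37 arrays, with Benjamini-Hochberg adjustment over 13078 genes, called at 0.05; a second limma model fitted Wfs1 slopes with strain in the WT arrays. Fits were tested on simulated data. Correlations used 100000 permutations, or all of them for 9 arrays (Python 3.11.15, SciPy 1.17.1).

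The members, lists and tests were chosen with earlier results of these data known. All members were named in every contrast; from 3 lists (other granins and processing enzymes, granule biogenesis and exocytosis, neuropeptide cargo) genes past the threshold, or where none passed the 3 with the smallest p; likeness named the 3 closest genes per member, the 5 closest to their mean, and the 3 highest and 3 lowest for Wfs1. Clone names were skipped. Slopes on the actin difference, slope differences between strains, the comparison of array sets, the alternatives for Pam and Ica1, the striatum markers without cargo genes, and values without single arrays were added after seeing the data.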

Additional observations from a re-analysis of the deposited data

Results flagged for a closer look

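Of 40 groups of values checked for an array far from the rest, 4 had one, where chance gives about 1 in 20. Scg2 in 129 WT had its lowest log2 signal in array 73, 10.16, with the next array at 10.44. Ptprn2 in 129 WT was also lowest in array 73, at 10.00, with the next at 10.20. Array 73 had the largest actin 3′ minus 5′ difference, 2.76; its part in these values was not tested. Ptprn2 in 129 KO was lowest in array 59, at 9.79, with the next at 10.22, and array 59 was the array least like its group (r = 0.981). Wfs1 in C57 WT was highest in array 42, at 9.73, with the next at 9.38.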

How the results depend on the processing

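The number of members called was 0 in each of the 6 group comparisons and for the slope on Wfs1 under every alternative run, with 1 exception: between the KO groups of the strains, the arrays with lower sample numbers alone gave 1, Pcsk1 (−0.38). With each array left out in turn the counts ran from 0 to 0. The change in Wfs1 itself was called under every alternative. No paired analysis was possible because the groups share no replicate numbers. Of the members, Pcsk1 lay closest to the filter on dim genes. Array set and the actin difference are unlabelled properties read from the data, and the number of arrays limits the precision of the intervals.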
